A study of Mus musculus with 4 samples.

Results

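The 9 genes described here encode the core of Hedgehog signalling: the ligands Shh, Ihh and Dhh, the receptor Ptch1, the signal transducer Smo, the ligand-binding inhibitor Hhip, and the transcription factors Gli1, Gli2 and Gli3. They were taken by name from a table of 27095 genes after Entrez IDs had been matched to mouse symbols, and all 9 passed the filter on low counts that left 16752 genes for testing. The family was chosen after Ptch1 was known to differ strongly between genotypes, so the genotype differences of all 9 genes are given as a description, without a test. The assay was Cut&Tag for the repressive histone mark H3K27me3, in which an antibody guides a transposase to marked chromatin, done on alveolar macrophages sorted from the lungs of C57BL/6 bone marrow chimeras. Libraries came from 2 Suz12 conditional knockout (cKO) samples and 2 wild-type samples, labelled as biological replicates, each from 100000 cells. In both genotypes, lethally irradiated Ly5.1 recipients carried a graft of 90% Ly5.2 marrow, from Suz12 cKO or wild-type donors, and 10% wild-type Ly5.1 marrow. What drives the deletion, which exons it removes, how old the mice were and whether Ly5.1 cells were sorted out is not stated in the labels. The cKO libraries may therefore hold some wild-type cells.

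In the Hedgehog pathway, a secreted ligand binds Ptch1 and so relieves its block on Smo, a membrane protein that acts through the primary cilium. Active Smo lets the Gli proteins switch on target genes, among them Ptch1, Hhip and Gli1 themselves. Through Ptch1 and Hhip the pathway restrains itself. In the lung, Shh comes from the epithelium and acts mainly on the mesenchyme. H3K27me3 is laid down by the Polycomb complex PRC2, of which Suz12 is an obligate subunit, and marks silenced developmental genes, often at promoters rich in CpG.

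The 4 promoters below, of 7 matched, set CpG content beside the H3K27me3 level per kb of the whole gene window. Ptch1 had the most CpG of the 7 promoters and the least mark per kb, and Ihh had the highest level per kb. Dhh had the fewest CpG and a high level, the second per kb of deposited window. Per kb of unshared reference window, Dhh was below Shh and Smo, but that length exceeds the deposited window, so this place of Dhh is unreliable. Gli3 was CpG-rich with a moderate level per kb. Windows ran from 11.514 kb (Dhh) to 272.304 kb (Gli3), so these levels do not show the mark at the promoter itself. In CPM over the whole window, Gli3 was at 254 in cKO and 270 in wild type, above Ihh at 222 in cKO and 194 in wild type. Each promoter is the 300 bp from 250 bases before to 50 after the gene's start, from RefSeq on GRCm38.p6. It is written 5′ to 3′ on the gene's strand with every CpG in capitals. The Ptch1 promoter is chr13:63565686-63565985 (minus strand), the Ihh promoter chr1:74951623-74951922 (minus), the Dhh promoter chr15:98898491-98898790 (minus) and the Gli3 promoter chr13:15463473-15463772 (plus). The start used for Ptch1 lies 7.725 kb inside the reference gene span, and that for Dhh 22 bases inside, so the Ptch1 sequence belongs to 1 start of the gene and not to its outermost.
Ptch1: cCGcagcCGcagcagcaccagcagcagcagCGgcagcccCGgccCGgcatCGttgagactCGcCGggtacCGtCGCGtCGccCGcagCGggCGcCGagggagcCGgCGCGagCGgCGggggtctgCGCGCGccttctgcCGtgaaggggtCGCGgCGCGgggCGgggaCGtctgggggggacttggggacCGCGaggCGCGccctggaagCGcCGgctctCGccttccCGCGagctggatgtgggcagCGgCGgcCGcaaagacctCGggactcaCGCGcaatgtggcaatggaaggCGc
Ihh: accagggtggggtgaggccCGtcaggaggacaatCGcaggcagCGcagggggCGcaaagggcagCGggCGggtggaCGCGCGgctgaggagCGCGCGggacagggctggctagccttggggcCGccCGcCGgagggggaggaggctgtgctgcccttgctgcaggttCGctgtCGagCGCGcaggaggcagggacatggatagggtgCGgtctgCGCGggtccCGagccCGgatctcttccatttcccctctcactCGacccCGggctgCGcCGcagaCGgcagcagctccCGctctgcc
Dhh: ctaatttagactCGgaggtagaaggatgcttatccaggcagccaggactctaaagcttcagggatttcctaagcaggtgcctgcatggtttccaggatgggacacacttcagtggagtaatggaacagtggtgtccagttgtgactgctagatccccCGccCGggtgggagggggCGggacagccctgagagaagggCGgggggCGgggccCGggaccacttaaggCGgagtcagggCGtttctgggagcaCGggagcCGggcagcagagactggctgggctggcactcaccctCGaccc
Gli3: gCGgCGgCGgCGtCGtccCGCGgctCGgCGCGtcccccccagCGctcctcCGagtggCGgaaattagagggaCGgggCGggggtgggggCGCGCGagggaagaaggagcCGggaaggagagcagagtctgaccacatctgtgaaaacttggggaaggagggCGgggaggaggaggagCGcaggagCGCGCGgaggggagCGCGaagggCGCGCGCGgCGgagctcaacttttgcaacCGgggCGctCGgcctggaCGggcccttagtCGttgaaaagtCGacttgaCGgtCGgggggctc
CpG numbered 47 in the Ptch1 promoter, more than in 98.6% of the 32851 promoters of this length, 39 in that of Gli3, 30 in those of Ihh and Hhip, 28 in that of Gli2, 17 in that of Smo and 12 in that of Dhh. The median over all promoters was 7. The letters GACCACCCA, a consensus of Gli binding, were found on neither strand of the 7 promoters searched and in 0.253% of all promoters. The shorter GACCACC, which is contained in it, was also found in none of the 7 and in 2.80% of all.

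Libraries held 3331138 and 3567282 counts in cKO macrophages, against 2592297 and 2142175 in wild-type macrophages. Levels are given as CPM (counts scaled to library size with TMM factors), and as CPM per kb of the gene's window, which spans the gene and 3 kb on each side. Both are relative measures within a library and cannot show a uniform rise or fall of the mark. Suz12 itself had 11 and 10 counts in cKO, against 8 and 10 in wild type, too few to be tested, and this H3K27me3 count does not check the deletion. Of 11 alveolar macrophage marker genes, the median was 0.153 CPM per kb in cKO and 0.151 in wild type. Over all tested genes the medians were higher, at 0.687 in cKO and 0.672 in wild type. Of the 7 tested markers, 0 were called by edgeR or DESeq2 (1 with an unadjusted p below 0.05). The marker medians fall on different genes, Pparg in cKO and the untested Ear1 in wild type. Both cKO libraries were above both wild-type ones at Pparg (log2 fold change 0.59 ± 0.27), Car4 (0.88 ± 0.48), Itgax (0.74 ± 0.48), Chil3 (0.84 ± 0.50) and Krt79 (0.67 ± 0.35), beside 23.8% of all tested genes. At Marco both were below (−0.12 ± 0.26), and at Mrc1 the genotypes overlapped (0.01 ± 0.35). For lung epithelial markers the median stood at 1.84 CPM per kb in cKO and 2.03 in wild type, and for fibroblast markers at 2.49 in cKO and 2.67 in wild type. Across all 7 other cell types listed, medians ran from 0.951 (T cell) to 3.86 (endothelium) in cKO, against 0.767 (T cell) to 3.64 (endothelium) in wild type. These medians include markers that were not tested, and single markers overlapped between cell types. In cKO, macrophage markers ran from 0.0222 to 0.769 and epithelial ones from 0.231 to 18.9. In wild type they ran from 0.0568 to 0.534 and from 0.170 to 19.7. Of 3 tested dendritic cell markers, edgeR called 1, Zbtb46 (gained, log2 fold change 0.43 ± 0.13, adjusted p = 0.0209). Over all genes 1076 of 16752 (6.42%) had a Benjamini-Hochberg adjusted p below 0.05 in edgeR's quasi-likelihood test, 747 gained (4.46%) and 329 lost (1.96%) in cKO. The share of gains among the calls was 69.4%, but it moved to 55.7% when only library totals were scaled to, 48.8% with upper-quartile scaling and 90.0% with housekeeping scaling.

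Per kb of window, the family was marked very unevenly. The 3 ligands and Smo carried far more H3K27me3 per kb than most genes in both genotypes. The Gli factors and Hhip had moderate levels, and Ptch1 had a low level in wild type. In cKO macrophages the order of CPM per kb was Ihh, Dhh, Smo, Shh, Hhip, Gli2, Gli1, Gli3 and Ptch1, and the order in wild-type macrophages was the same. This order depends on the length used: per kb of reference window not shared with other genes it was Ihh, Shh, Smo, Dhh, Hhip, Gli1, Gli2, Gli3 and Ptch1 in both genotypes. For Dhh that length, 16.42 kb, exceeds the deposited window of 11.514 kb, which lowers its value, so its place there is unreliable. Ptch1, at 71.133 kb against 59.988 kb deposited, is lowered too but was last by either length. Neighbours in the order by deposited window did not overlap between libraries, except Hhip and Gli2 in wild type. Windows were 11.514 to 31.87 kb at the 3 ligands and Smo, 17.698 kb at Gli1, and 98.158 to 272.304 kb at Hhip, Gli2 and Gli3. By CPM over the whole window, Gli2 was highest, at 326 in cKO and 343 in wild type. Gli3 (254 in cKO, 270 in wild type) and Hhip (181 and 162) were then above Dhh (116 and 107) and Shh (102 and 107). Of the 9 genes, 1 was past the threshold, Ptch1, which gained (background 4.46% gained), and 0 lost. The genotypes did not overlap at 6 of the 9, with cKO above at Ptch1, Ihh and Hhip and below at Shh, Gli2 and Gli3 (background 47.6% either way, 23.8% above). Because Ptch1 led to the choice of the family, nothing is read from these counts. The median log2 fold change was 0.10 over the 9 genes, 0.06 over the 8 without Ptch1, and −0.01 over all tested genes.

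**Figure D1:**
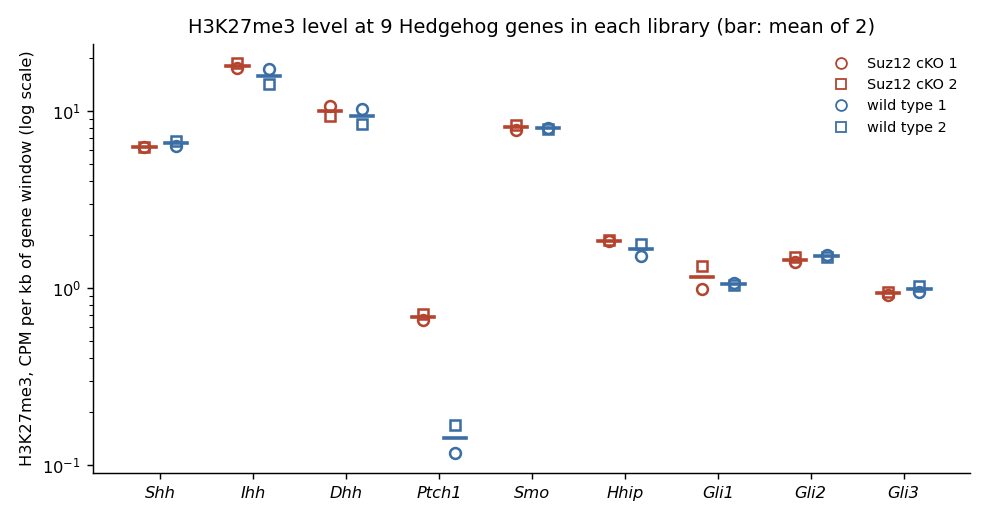
H3K27me3 per kb of gene window (CPM per kb, log axis) at the 9 Hedgehog genes. Each point is a library, circles replicate 1 and squares replicate 2, with cKO in red left of wild type in blue, and bars are means of 2. Ihh is highest, at 18.0 CPM per kb in cKO and 15.7 in wild type, and the genotypes stand apart by several times at Ptch1, at 0.684 in cKO and 0.142 in wild type.

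Among the ligands, Ihh, which directs cartilage growth and gut differentiation, was the most strongly marked gene of the family per kb. The Ihh window (Entrez 16147; chromosome 1, gene at 74945315 to 74951672) held 702 and 783 counts in cKO, against 549 and 381 in wild type. That is 215 and 229 CPM in cKO, against 213 and 174 CPM in wild type. Both cKO libraries were above both wild-type libraries, but cKO library 1 only by a little over wild-type library 1. At 18.0 ± 0.804 CPM per kb in cKO and 15.7 ± 2.20 in wild type (SD, n = 2 each), Ihh stood above 99.4% of tested genes in each genotype. The log2 fold change was 0.19 ± 0.10 (SE).

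Dhh, the ligand of testis and peripheral nerve sheaths, had 123 and 108 CPM in cKO, against 118 and 96.6 CPM in wild type, and the genotypes overlapped. Per kb this was 10.0 ± 0.931 in cKO and 9.33 ± 1.33 in wild type (SD, n = 2 each), above 97.7% of tested genes in both. The log2 fold change was 0.10 ± 0.12. The deposited Dhh window of 11514 bp is shorter than the 16948 bp that the reference gives the gene (Entrez 13363; chromosome 15, 98881615 to 98898562), so its overlaps are known only roughly: by reference positions the windows of Rhebl1 and Lmbr1l share 28.4% of it. Over the 16.42 kb of reference window that is unshared, Dhh was at 7.04 CPM per kb in cKO and 6.54 in wild type. That length exceeds the deposited window, which lowers these values, so they do not place Dhh below Smo. Shh, the ligand of limb, neural tube and airway patterning, had 102 CPM in each cKO library, against 103 and 110 CPM in wild type. Both cKO libraries were lower, by about 1 CPM from the nearer wild-type library. At 6.27 ± 0.00868 CPM per kb in cKO and 6.56 ± 0.313 in wild type, Shh (Entrez 20423; chromosome 5, 28456840 to 28467101) was above 95.2% of tested genes in cKO and 95.9% in wild type, with a log2 fold change of −0.06 ± 0.12. The window of 9530036O11Rik overlaps 37.6% of that of Shh. No source used here says how reads in overlaps were counted. Of 2444 windows wholly overlapped by others, 1640 had 0 counts in all 4 libraries, against 138 of 10809 windows with no overlap. Divided by the unshared length alone, Shh was at 10.1 CPM per kb in cKO and 10.5 in wild type, above Smo in both.

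Smo, the membrane protein that carries the signal inward, stood among the ligand genes in level per kb. It had 249 and 265 CPM in cKO, against 256 and 252 CPM in wild type, so the cKO libraries enclosed the wild-type ones. Per kb of its 31.87 kb window (Entrez 319757; chromosome 6, 29735497 to 29761366) this was 8.07 ± 0.355 in cKO and 7.97 ± 0.0997 in wild type (SD, n = 2 each). The log2 fold change was 0.02 ± 0.10, and it changed sign with library totals alone (−0.04) and with upper-quartile factors (−0.07). No other window overlaps that of Smo.

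Ptch1, which binds the ligands and holds Smo in check, had a several times larger share of the H3K27me3 counts in cKO than in wild type. Its window (Entrez 19206; chromosome 13, 63508328 to 63573460) held 129 and 146 counts in cKO, against 18 and 22 in wild type. That is 39.4 and 42.6 CPM in cKO, against 6.98 and 10.1 CPM in wild type. Both cKO libraries lay well above both wild-type libraries, and the replicates of each genotype lay close together beside the gap between genotypes. The log2 fold change was 2.28 ± 0.26 (SE), a 4.86-fold difference, larger than at 99.9% of tested genes. In wild type, Ptch1 at 0.142 ± 0.0365 CPM per kb was above 15.3% of tested genes, and in cKO at 0.684 ± 0.0377 it was above 49.9% (SD, n = 2 each). The gain therefore brought Ptch1 to about the median of all tested genes and left it the lowest of the family per kb in both genotypes. Over the 13 alternatives run, the log2 fold change lay between 2.03 (without wild-type replicate 1) and 2.56 (without wild-type replicate 2). By reference positions no window overlaps it, though the deposited window of 59988 bp is shorter than the reference gene of 65133 bp.

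**Figure D2:**
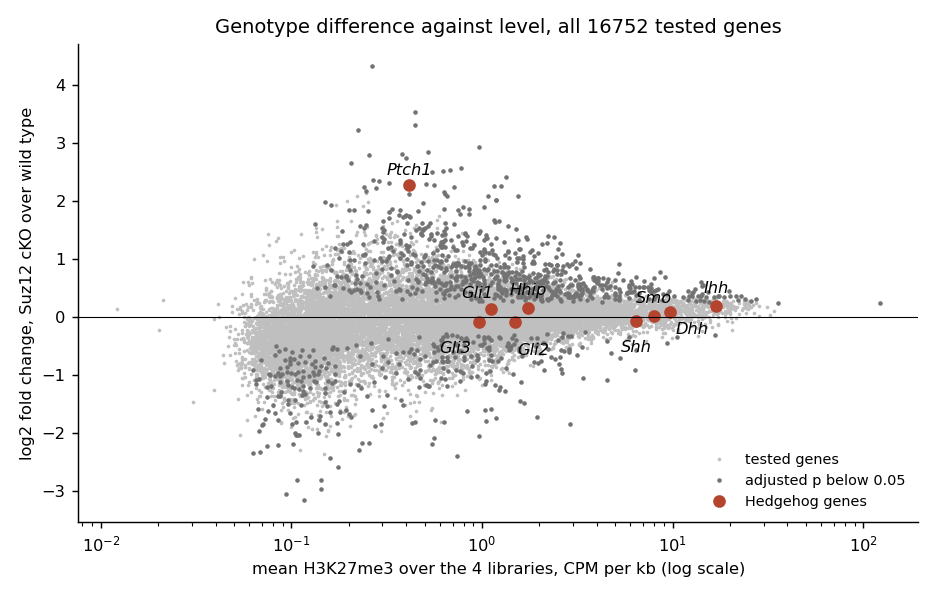
Log2 fold change (cKO over wild type) against the mean level over the 4 libraries (CPM per kb, log axis) for the 16752 tested genes. Light points are genes not called, dark points genes with an adjusted p below 0.05, red points the 9 Hedgehog genes. Ptch1 is at 2.28, and the other 8 lie between −0.08 and 0.19.

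The 3 tested genes closest to Ptch1 in log2 CPM per kb over the 4 libraries, by Euclidean distance, were Arhgap15, which encodes a Rac GTPase-activating protein, at 0.514, Mllt3, a subunit of chromatin complexes that read acetylated histones, at 0.545, and the tubulin gene Tubb6, at 0.607. Arhgap15 had 0.577 ± 0.00979 CPM per kb in cKO and 0.161 ± 0.0138 in wild type, with a log2 fold change of 1.85 ± 0.11. Mllt3 had 0.530 ± 0.0259 in cKO and 0.146 ± 0.0238 in wild type (1.87 ± 0.14). Tubb6, with 22.1% of its window overlapped, had 0.563 ± 0.0286 in cKO and 0.168 ± 0.0856 in wild type (1.76 ± 0.47). They were picked for this likeness, so no test is given.

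Hhip, which sequesters the ligands at the cell surface and is itself a Hedgehog target, differed little between genotypes. It had 180 and 183 CPM in cKO, against 150 and 174 CPM in wild type, so both cKO libraries were above both wild-type libraries. Over its 98.158 kb window (Entrez 15245; chromosome 8, 79965850 to 80058060) this came to 1.85 ± 0.0176 CPM per kb in cKO and 1.65 ± 0.178 in wild type (SD, n = 2 each), with a log2 fold change of 0.17 ± 0.11. Hhip stood above 78.0% of tested genes in cKO and 76.0% in wild type.

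The Gli factors, which bind DNA and carry the signal to target genes, had log2 fold changes from −0.08 to 0.14. Gli2, the main activator, had 314 and 337 CPM in cKO, against 346 and 340 CPM in wild type, the most CPM of the family in both. Both cKO libraries were below both wild-type libraries, with a log2 fold change of −0.07 ± 0.09. Gli3, which acts mainly as a repressor, had 250 and 259 CPM in cKO, against 260 and 279 CPM in wild type (−0.08 ± 0.10), and cKO was again lower in both libraries. With housekeeping scaling, which raised the median of all genes by 0.17, Shh, Gli2 and Gli3 were at 0.11, 0.10 and 0.09. The windows of Gli2 (Entrez 14633; chromosome 1, 118834061 to 119054405) and Gli3 (Entrez 14634; chromosome 13, 15463723 to 15730026) are 225.559 and 272.304 kb long, so their signal per kb was modest. It came to 1.44 ± 0.0712 in cKO and 1.52 ± 0.0193 in wild type for Gli2, and to 0.933 ± 0.0240 in cKO and 0.991 ± 0.0496 in wild type for Gli3. A whole-window value does not show where in a gene the mark lies.

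Gli1, an activator whose own transcription is a standard readout of Hedgehog activity, had the fewest counts of the family over the 4 libraries. It had 57 and 81 counts in cKO, against 49 and 40 in wild type, or 17.4 and 23.7 CPM in cKO and 19.0 and 18.3 CPM in wild type. The cKO libraries lay on either side of the wild-type ones. The level was 1.16 ± 0.249 CPM per kb in cKO and 1.05 ± 0.0274 in wild type (SD, n = 2 each), with a log2 fold change of 0.14 ± 0.25. The window of Arhgap9 overlaps 34.3% of that of Gli1 (Entrez 14632; chromosome 10, 127329882 to 127341579), so the level is uncertain to that extent. Over the unshared length it was at 1.77 CPM per kb in cKO and 1.60 in wild type, above Gli2 in both.

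The other genes of the pathway were compared from a list of 64, of which 61 passed the count filter. By edgeR 2 gained, Efcab7 and Olig2, and 1 lost, Mgrn1, or 3 of 61, beside 6.42% of all tested genes. The median log2 fold change was −0.01, as over all tested genes, and 29 of the 61 were positive. Efcab7, which helps to tether the Evc proteins that pass on the Smo signal at the cilium base, had 20.5 and 24.8 CPM in cKO, against 3.10 and 9.16 CPM in wild type. Both cKO libraries were clearly above both wild-type libraries, which rested on only 8 and 20 counts. The log2 fold change was 1.93 ± 0.33 (SE, adjusted p = 9.4e-07), and 1.31 without wild-type replicate 1 (adjusted p = 0.0117) and 2.86 without wild-type replicate 2. Its level per kb remained low, at 0.254 ± 0.0344 in cKO and 0.0687 ± 0.0480 in wild type (SD, n = 2 each), and 6.46% of its window is overlapped.

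Mgrn1, a ubiquitin ligase that lowers Smo at the cell surface, fell to 5.50 and 3.80 CPM in cKO, against 18.2 and 8.24 CPM in wild type (log2 fold change −1.53 ± 0.39, adjusted p = 0.00463). Both cKO libraries were below both wild-type libraries, and the wild-type ones differed from each other by more than 2-fold. The loss was not called without wild-type replicate 1 (−0.82, adjusted p = 0.545) or without cKO replicate 2 (adjusted p = 0.116), and 16.1% of its window is overlapped. Olig2, a transcription factor of motor neuron and oligodendrocyte progenitors that Shh induces in the neural tube, had 181 and 200.3 CPM in cKO, against 171 and 128 CPM in wild type. Its log2 fold change was 0.34 ± 0.11 (adjusted p = 0.0331). The Olig2 gain was not called without wild-type replicate 2 (adjusted p = 0.566), without cKO replicate 1 (0.112) or cKO replicate 2 (0.540), or with library totals alone (0.0774), upper-quartile factors (0.162) or housekeeping scaling (0.266). DESeq2 (adjusted p = 0.281) and libraries thinned to the lowest total (adjusted p = 0.0767) did not call it either.

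By role, 0 of 9 tested genes for ligand acylation, release and transport were called by edgeR or DESeq2 (3 with an unadjusted p below 0.05). They ranged from Disp1, which releases lipid-modified ligand, with 0.117 ± 0.0128 CPM per kb in cKO and 0.128 ± 0.00662 in wild type (log2 fold change −0.14 ± 0.27, adjusted p = 0.851), to Scube3, a secreted carrier, with 7.69 ± 0.486 in cKO and 6.35 ± 0.373 in wild type (0.27 ± 0.10, adjusted p = 0.0790). Of the 4 co-receptors, 0 were called by either tool (0 with an unadjusted p below 0.05). The ligand-binding Gas1 was strongly marked, at 9.59 ± 0.0334 CPM per kb in cKO and 8.57 ± 2.12 in wild type (0.15 ± 0.13, adjusted p = 0.607). Boc, a ligand-binding co-receptor, stood at 2.82 ± 0.0651 in cKO and 3.04 ± 0.328 in wild type (−0.11 ± 0.10, adjusted p = 0.623), and its genotypes overlapped, with 12.2% of its window overlapped by others.

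Of 18 tested intracellular regulators, Efcab7 and Mgrn1 were called and 16 were not, and the median level was 0.190 CPM per kb in cKO and 0.201 in wild type. Cilium transport genes had low levels per kb of window, with medians of 0.0947 in cKO and 0.121 in wild type. Of these, 0 of 7 were called by either tool (1 with an unadjusted p below 0.05). They ran from the kinesin gene Kif3b (−1.10 ± 0.48, adjusted p = 0.170) to Ift88, of the intraflagellar transport machinery (0.27 ± 0.38, adjusted p = 0.772). DESeq2 gave Kif3b and Ift88 no adjusted p, so it could not call them. Of 23 tested genes known as Hedgehog targets in other tissues, 1 was called, Olig2. Their median level was high, at 9.25 CPM per kb in cKO and 10.0 in wild type. The ends of their range of change were the cyclin gene Ccnd2 (−1.34 ± 0.57, adjusted p = 0.156) and Grem1, a BMP antagonist (0.42 ± 0.49, adjusted p = 0.709), both with at most 27 counts in a library. Without wild-type replicate 1 the calls among the 61 and 1 further gene rose in number to 9, with Tbx2, Foxd1, Scube3, Foxa2, Foxe1 and Nkx6-1 gained beside Efcab7 and Olig2, and with Btrc lost in place of Mgrn1.

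**Figure D3:**
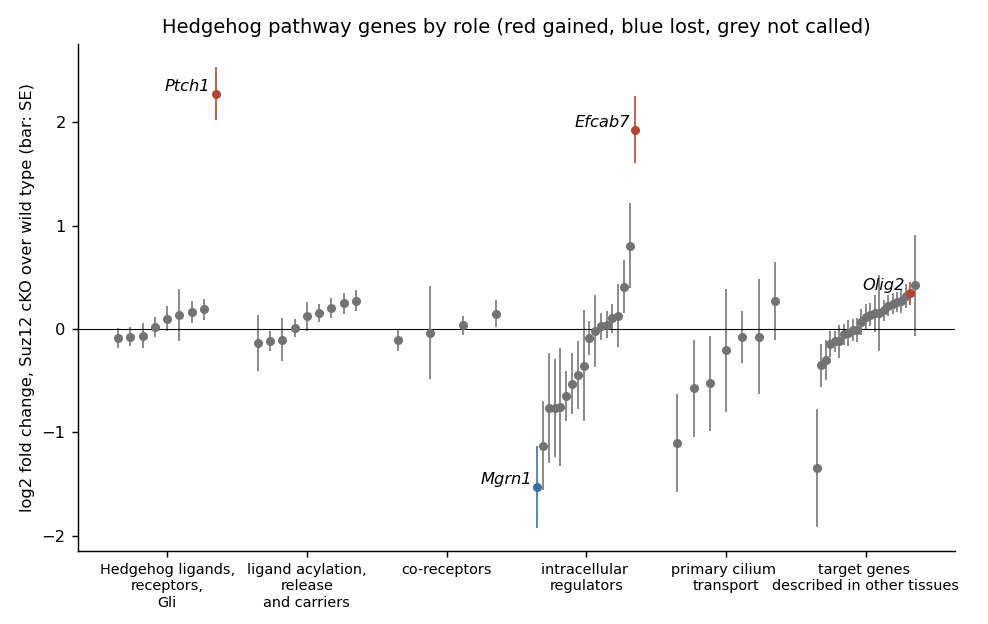
Log2 fold change (cKO over wild type) with its SE for the 9 Hedgehog genes and the 61 other tested pathway genes, grouped by role and sorted within a role. Red points gained, blue lost and grey were not called, and Ptch1 at 2.28 and Efcab7 at 1.93 stand above the rest.

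The gain at Ptch1 was next compared with the genes around it. Within 500 kb lay 9 other gene windows, of which 4 passed the filter, and 1 of the 4 was called. Fancc, a DNA repair gene that lies 11.0 kb from Ptch1, had 30.0 and 25.4 CPM in cKO, against 33.3 and 24.3 CPM in wild type (log2 fold change −0.07 ± 0.21, adjusted p = 0.914). Ercc6l2, a helicase gene 238 kb away on the other side, had 0.0593 ± 0.0112 CPM per kb in cKO and 0.0612 ± 0.0202 in wild type (−0.03 ± 0.49, adjusted p = 0.985). Aopep, an aminopeptidase gene 182 kb away, was at −0.17 ± 0.19 (adjusted p = 0.702). At none of these 3 did the genotypes separate.

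Hsd17b3, which encodes a testosterone-forming dehydrogenase and lies 485 kb from Ptch1 beyond Ercc6l2, had 25.4 and 33.3 CPM in cKO, against 8.92 and 17.9 CPM in wild type. Both cKO libraries were above both wild-type ones, with a log2 fold change of 1.16 ± 0.26 (adjusted p = 0.000424). It was not called without wild-type replicate 1 (0.72, adjusted p = 0.152), without cKO replicate 2 (0.95, adjusted p = 0.0682) or by DESeq2 (adjusted p = 0.0713). Gains are 4.46% of tested genes, so 1 called gene of 4 is no result about this region.

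**Figure D4:**
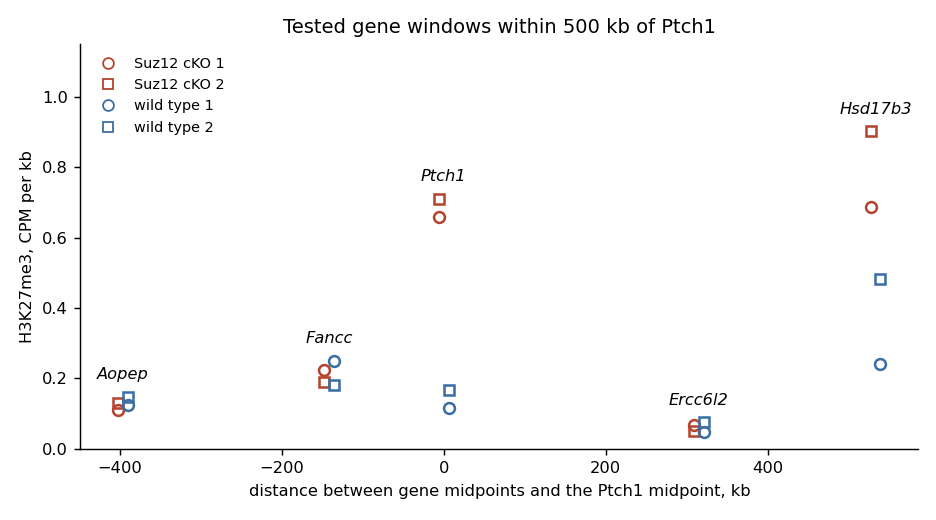
H3K27me3 (CPM per kb) of Ptch1 and the 4 tested genes within 500 kb, by the distance in kb between gene midpoints. Points are libraries, cKO in red and wild type in blue. The genotypes separate at Ptch1 and Hsd17b3 and overlap at Aopep, Fancc and Ercc6l2.

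Of the 16 nearest tested genes on either side of the other 8 family members, 0 gained and 0 lost, with log2 fold changes from −0.50 to 0.84. By DESeq2 0 were called, and 1 had an unadjusted p below 0.05 in edgeR. The highest of these fold changes was that of 4933412O06Rik, 51.6 kb from Gli3 (0.84 ± 0.34, adjusted p = 0.133 in edgeR). It had 12.5 and 16.1 CPM in cKO, against 6.98 and 9.16 CPM in wild type. Genes whose span overlaps that of a member were not counted as nearest. By that rule, several marked members had a gene with little mark on a side. Rbm33, an RNA-binding protein gene 37.6 kb from Shh, had 0.0788 CPM per kb in cKO and 0.113 in wild type, far below Shh. But 9530036O11Rik, whose window overlaps that of Shh, held 750 and 892 counts in cKO, against 720 and 646 in wild type. Shh itself held 334 and 349 in cKO, against 266 and 241 in wild type. On the other side of Shh, Rnf32, 726 kb away, was at 0.862 in cKO and 0.976 in wild type. Beside Dhh, the H3K4 methyltransferase gene Kmt2d had 0.128 in cKO and 0.154 in wild type, and Lmbr1l 0.185 in cKO and 0.174 in wild type. Ihh lay between Cfap65, a sperm flagellum gene that was itself marked at 4.73 CPM per kb in cKO and 5.04 in wild type, and the DNA repair gene Nhej1, at 0.231 in cKO and 0.271 in wild type. On one side of Smo was Tspan33, a tetraspanin gene, at 5.36 in cKO and 4.56 in wild type, and on the other Ahcyl2, at 0.0928 in cKO and 0.0997 in wild type. Next to Gli2, the activin subunit gene Inhbb reached 12.9 CPM per kb in cKO and 11.5 in wild type.

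The fold changes of the 9 genes under each processing alternative are given as a description. That of Ihh reached 0.37 on the log2 scale with housekeeping scaling and 0.35 without wild-type replicate 1.

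**Figure D5:**
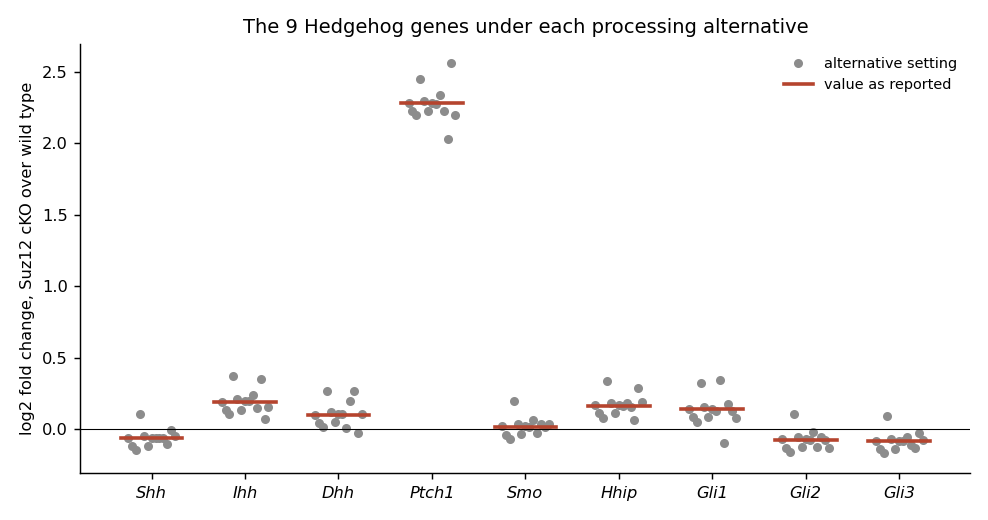
Log2 fold change (cKO over wild type) of each of the 9 Hedgehog genes as reported (red bar) and under 13 other settings of normalization, filter, tool, replicates and depth (grey points). Ptch1 lies between 2.03 and 2.56, and all values of the other 8 genes lie between −0.17 and 0.37.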

How the data were processed

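The deposited file is a table of raw counts per Entrez gene window, with a column for each of the 4 libraries and the window length. The reads were placed on mm10 and counted with featureCounts, per the submitters' processing notes. No source used here names the aligner or says how duplicates were handled. For 11524 genes the length equals the reference span plus 3 kb on each side. Symbols, positions and overlaps came from the GRCm38.p6 RefSeq table, in which 25204 IDs (93.0%) were found.

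From these counts, genotypes were compared with edgeR 4.0.16 under R 4.3.3 (filterByExpr, TMM, glmQLFit, glmQLFTest, genotype as the only term), with p-values adjusted over all genes tested and a threshold of 0.05. An SE is the size of a log2 fold change over the root of its F statistic. The script was tested on simulated data. DESeq2 1.42.0 was an alternative. It gave no adjusted p to some tested genes with low counts, among them Mgrn1, Kif3b, Ift88, Ercc6l2 and Tubb6. Such genes could not be called by it. The labels call the replicates biological. With 2 libraries a genotype, the smallest p that an exact two-sided permutation test of a single value allows is 0.333, so none was run. The 9 members and the gene lists were chosen with earlier results of these data known. Named genes were the members, Suz12, the called pathway genes with the highest and lowest of each role, tested genes within 500 kb of Ptch1, some of the nearest tested genes of the other members, and the 3 genes most like Ptch1. Some pathway genes are not reported here. Other genes named only because a call changed were chosen after their values were seen. Sequences are from RefSeq, matched for 7 of the 9 members; those of Shh and Gli1 are not printed.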

Additional observations from a re-analysis of the deposited data

How the results depend on the processing

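Of the 9 members, 1 (Ptch1) was past the threshold under each of the 13 alternatives, which is a description, since its difference led to the choice of the family. Over all genes, the 1076 calls became 478 with housekeeping scaling (430 gained, 48 lost), which rested on 342 to 493 counts a library, and 377 with DESeq2's Wald test (325 gained, 52 lost); leaving out 1 library gave 426 to 945. Calls among the other pathway genes, 3 as reported, numbered 1 (Efcab7) with DESeq2, where Mgrn1 had no adjusted p, and 1 to 9 with 1 library left out. The call among the neighbours of Ptch1, 1 as reported, numbered 0 with DESeq2 and 0 to 1 with 1 library left out. With a mean of at least 50 counts Olig2 and Btrc were called, and Efcab7 and Mgrn1 had too few counts to be tested. The cause of these changes was not tested.

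Signs turned where the reported difference was small or, at Ift88 (0.27 ± 0.38) and Grem1 (0.42 ± 0.49), where its SE was wide. With housekeeping scaling the log2 fold change was 0.11 for Shh, 0.10 for Gli2, 0.091 for Gli3, 0.0095 for Aopep, 0.095 for Fancc, 0.13 for Ercc6l2, 0.064 for Boc and 0.027 for Disp1. For Smo it was −0.038 when only totals were scaled to, −0.067 with upper-quartile scaling and −0.036 under the filter of 50 counts. Disp1 was at 0.046 with thinned libraries. With each library left out in turn, the range was −0.024 to 0.26 for Dhh, −0.025 to 0.068 for Smo, −0.096 to 0.35 for Gli1, −0.26 to 0.19 for Fancc, −0.34 to 0.34 for Ercc6l2, −0.060 to 0.45 for Gas1, −0.20 to 0.015 for Boc, −0.12 to 0.92 for Ift88 and −0.018 to 0.84 for Grem1.

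In the labels, replicates 1 and 2 share only a number across genotypes. The correlation of their deviations was 0.00844, which cannot show whether they were paired, since counting noise enters it. With the replicate block 1039 genes were called (733 gained, 306 lost), 1 member, 3 other pathway genes and 1 neighbour, and Ptch1 was at 2.28. Ptch1 in wild type and Gli1 rest on 18 to 81 counts a library, which limits their precision.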
